A study of Mus musculus with 26 samples.

Results

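Translation initiation factors (eIFs) and elongation factors (eEFs) were followed through a chase of labelled RNA in murine oligodendrocyte progenitor cells (OPCs) and in oligodendrocytes (OLs). The genes were chosen by name alone, as those whose symbol begins with Eif1 to Eif6, Eef1 or Eef2, and the eIF2 alpha kinases, whose symbols begin with Eif2ak, were left out. The naming rule itself uses no measured value. It gave 58 genes of the 10104 listed for either cell type, and each gene was represented by 1 transcript. Of these, 57 were listed for OPCs, 57 for OLs and 56 for both. The eEF2 lysine methyltransferase gene Eef2kmt was listed for OPCs alone and the eEF1A lysine methyltransferase gene Eef1akmt1 for OLs alone. All 56 shared genes had a half-life in each of the 5 replicates, of 8112 transcripts that did.

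The OPCs were derived in vitro from epiblast stem cells of strain 129S/SvEv and were kept in bFGF and PDGFA. The OLs were differentiated from such OPCs in medium with noggin, IGF-1, cyclic AMP, NT3 and the thyroid hormone T3, and had differentiated for 40 h when labelling began. Both cell types took up 5-ethynyluridine (5-EU), a uridine analogue to which biotin can be coupled, for 24 h, after which the medium held uridine in its place. Labelled RNA was pulled down after 0, 1, 2, 4 and 6 h of chase and sequenced, from 3 OPC replicates and 2 OL replicates, so that 25 libraries were analysed. The study's methods state that the OLs came from 2 of the OPC replicates, but not from which. The study also notes that some cells of the OL cultures stayed OPCs.

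An eIF brings the ribosome, the initiator tRNA and the start codon together. In outline, eIF2 delivers the initiator tRNA, eIF2B recharges eIF2 with GTP, eIF3 organises the small ribosomal subunit, eIF4F recognises the cap and unwinds the leader, and eIF5 and eIF5B complete subunit joining. The eEFs then run the cycle of peptide growth, in which eEF1A brings aminoacyl-tRNA to the ribosome and eEF2 moves the ribosome along the message. Inherited defects of eIF2B underlie Vanishing White Matter disease, a leukodystrophy in which the glia of white matter are affected most.

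Levels are given in FPKM, a count of fragments corrected for transcript length and for the mapped reads of a library, so that levels of different genes can be set side by side and each 0 h level, read as unscaled by the spike-ins, is relative to all other transcripts of its library. Read depth was not given with these values, so no counting error could be attached to them. In bulk cultures, fewer cells of a type and less RNA per cell cannot be told apart. The 9 OL markers that were checked, summed, stood at 39.2 to 57.5 FPKM in the OPC libraries at 0 h, where 3 of them were listed, and at 2936 to 6315 FPKM in the OL libraries, where all 9 were listed. The 4 cycling genes summed to 149 to 285 FPKM in OPCs and to 26.6 to 63.9 FPKM in OLs. The OPC markers were mixed at 0 h. Of the 5, Pdgfra (11.5 to 26.5 FPKM in OPCs, 43.9 and 66.9 FPKM in OLs) and Lhfpl3 were higher in OLs, against the labels. Gpr17 was higher in OLs as well (5.00 to 6.61 FPKM in OPCs, 323 and 299 FPKM in OL replicates 1 and 2). Cspg4 was at 55.7, 35.7 and 43.9 FPKM in OPCs and at 30.7 and 29.9 FPKM in OLs, with no overlap, but did not pass (log2 difference -0.53, adjusted p = 0.0961), nor did Ptprz1 (-0.46, adjusted p = 0.323). Astrocyte, neuron, microglia and pluripotency lists had 2 of 5, 1 of 5, 0 of 4 and 0 of 4 genes listed for both cell types. The astrocyte list summed to 220 to 265 FPKM in OPCs and to 144 and 353 FPKM in OL replicates 1 and 2, with Gfap and Aldh1l1 listed for OLs alone and Gja1 at 40.1 and 188 FPKM in OL replicates 1 and 2. The part of these cell states in the results that follow was not tested.

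Before the chase, the translation factors as a group made up a smaller share of labelled RNA in OLs than in OPCs. Their summed FPKM was 2.30%, 2.1% and 2.20% of the total in the 3 OPC libraries, and 1.69% and 1.61% in the 2 OL libraries. Of the 56 shared genes, 20 were lower in OLs at an adjusted p under 0.05 (limma on log2(FPKM + 1), Benjamini-Hochberg over 8177 transcripts), beside 17.5% of all transcripts, and 7 were higher, beside 14.1%. The median difference (OL minus OPC) of the 56 genes was -0.40 on the log2 scale, and that of all transcripts was -0.01. Both OL levels lay below all 3 OPC levels for 30 genes, beside 31.4% of all transcripts, and above them for 8 genes, beside 28.0%. The 20 lower genes differed by 1.49-fold to 4.72-fold and the 7 higher genes by 1.60-fold to 1.95-fold. The counts leaned on single libraries. They were 5 lower and 2 higher without OL replicate 2, 6 and 2 without OL replicate 1, and 7 and 2 without OPC replicate 3. Of the 27 genes called, 2 (Eif4ebp1 and Eif5a) passed in all 10 other settings, whereas Eif4g1 passed in 3, Eif4e and Eif3j1 in 4, and Eef2, Eif3b and Eif4a2 in 5.

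**Figure D1:**
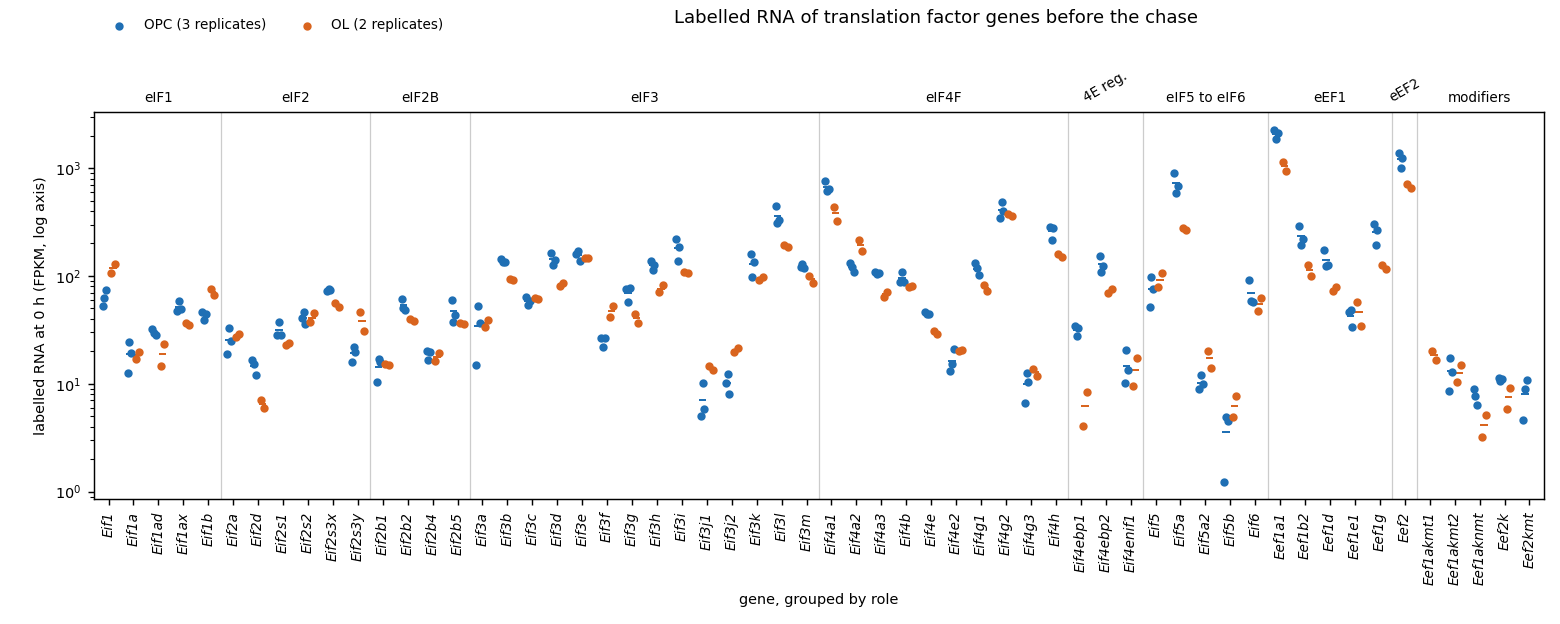
Labelled RNA at 0 h (FPKM, log axis) of the 58 translation factor genes, grouped by role, with 1 point per replicate and a bar at the mean of each cell type (OPC, n = 3; OL, n = 2). Eef1a1 and Eef2 stood highest in both cell types, the elongation factors sat lower in OLs, and Eif4ebp1 fell the furthest, from between 27.8 and 34.0 FPKM in OPCs to 4.05 and 8.39 FPKM in OLs.

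Eef1a1 and Eef2 were among the most abundant of all transcripts, and 5 of the 6 genes of the eEF1 and eEF2 roles were lower in OLs. Eef1a1, the carrier of aminoacyl-tRNA, stood at 2262, 1871 and 2127 FPKM in the OPC replicates and at 1137 and 950 FPKM in the OL replicates. By mean level it ranked 8 of 8530 transcripts in OPCs and 11 of 9751 in OLs. It fell by 1.00 ± 0.27 (SE) on the log2 scale (adjusted p = 0.0199). The 3 subunits of the complex that reloads eEF1A with GTP fell by similar amounts. Eef1b2 went from 292, 196 and 222 FPKM to 126 and 99.8 FPKM, a change of -1.05 ± 0.22 (adjusted p = 0.00621). Eef1g changed by -1.04 ± 0.22 (adjusted p = 0.00631) and Eef1d by -0.89 ± 0.20 (adjusted p = 0.00903). Eef2, the translocase, stood at 1369, 1003 and 1246 FPKM in OPCs and at 714 and 653 FPKM in OLs, a change of -0.81 ± 0.24 (adjusted p = 0.0324). For each of these 5 genes the groups did not overlap. The fifth gene named Eef1, Eef1e1, encodes a protein of the multisynthetase complex rather than a carrier or exchange factor, and its difference was 0.07 ± 0.26 (adjusted p = 0.85).

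Eif5a, whose hypusine-bearing protein helps the ribosome through difficult stretches and at termination, had the second largest decrease. It was at 907, 590 and 681 FPKM in OPCs and at 280 and 266 FPKM in OLs, which is a fall of 2.61-fold (log2 difference -1.38 ± 0.23, adjusted p = 0.00223). Its paralogue Eif5a2 was at 8.88, 12 and 9.89 FPKM in OPCs and at 20.3 and 14.0 FPKM in OLs, and its difference of 0.68 ± 0.28 did not pass (adjusted p = 0.0926). The ratio of Eif5a2 to Eif5a was thus 0.00979, 0.0204 and 0.0145 in OPCs and 0.0724 and 0.0528 in OLs, with no overlap. Eif5, Eif5b and Eif6, which act at GTP hydrolysis, subunit joining and 60S maturation, passed no test (adjusted p = 0.376, 0.209 and 0.376). Eif5b was the lowest member by its mean over all 5 replicates, at 1.24, 4.92 and 4.50 FPKM in OPCs and 4.88 and 7.63 FPKM in OLs.

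Of the 10 eIF4F genes 5 were lower in OLs and 1 was higher, and of the 3 regulators of eIF4E 2 were lower. Eif4ebp1, the 4E-binding protein that keeps eIF4E from eIF4G until mTOR phosphorylates it, had the largest difference of all members. Its levels were 34.0, 27.8 and 33.0 FPKM in OPCs and 4.05 and 8.39 FPKM in OLs (log2 difference -2.24 ± 0.30, adjusted p = 0.00066). Eif4ebp2, a second 4E-binding protein, was at 154, 109 and 123 FPKM in OPCs and at 69.2 and 76.2 FPKM in OLs (-0.80 ± 0.20, adjusted p = 0.0136). Eif4e itself fell from between 44.0 and 46.0 FPKM to 30.8 and 28.8 FPKM (-0.57 ± 0.18, adjusted p = 0.039). The level of Eif4ebp1 per unit of Eif4e was 0.741, 0.627 and 0.751 in OPCs and 0.131 and 0.291 in OLs. The level of Eif4ebp2 per unit of Eif4ebp1 was 4.52, 3.90 and 3.72 in OPCs and 17.1 and 9.08 in OLs. The scaffold gene Eif4g1 changed by -0.58 ± 0.18 (adjusted p = 0.0376) and the helicase cofactor gene Eif4h by -0.74 ± 0.19 (adjusted p = 0.0174). The scaffold paralogues Eif4g2 and Eif4g3, and the cofactor gene Eif4b, did not pass (adjusted p = 0.617, 0.395 and 0.324). Neither did the cap-binding paralogue Eif4e2 (0.33, adjusted p = 0.363) or Eif4enif1 (-0.13, adjusted p = 0.81).

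The helicase subunits of eIF4F moved apart. Eif4a1, the main eIF4A, was at 752, 610 and 643 FPKM in OPCs and at 438 and 325 FPKM in OLs (-0.82 ± 0.22, adjusted p = 0.0217). Eif4a2 was at 132, 120 and 109 FPKM in OPCs and at 215 and 171 FPKM in OLs (0.67 ± 0.19, adjusted p = 0.0224). All OPC replicates were therefore above the OL replicates for Eif4a1 and below them for Eif4a2. The ratio of Eif4a2 to Eif4a1 was 0.175, 0.197 and 0.170 in OPCs and 0.492 and 0.528 in OLs. Eif4a3, an eIF4A relative that belongs to the exon junction complex, changed by -0.64 ± 0.17 (adjusted p = 0.0173).

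Among the 5 eIF1 and eIF1A genes, which act in finding the start codon, 2 (Eif1 and Eif1b) rose. Eif1ad (-0.66, adjusted p = 0.0671), Eif1ax (-0.52, adjusted p = 0.0608) and Eif1a (0.02, adjusted p = 0.968) did not pass. Eif1, which guards the fidelity of start codon choice, went from 52.6, 62.9 and 74.3 FPKM in OPCs to 107 and 129 FPKM in OLs (0.90 ± 0.20, adjusted p = 0.00911). Eif1b, its paralogue, went from 46.3, 39.3 and 44.5 FPKM to 75 and 66.7 FPKM (0.70 ± 0.18, adjusted p = 0.0175). Of the core eIF2 subunit genes, Eif2s1 and Eif2s2 did not pass (adjusted p = 0.178 and 0.993). The gamma subunit has an X-linked and a Y-linked copy. Eif2s3y rose from 16.0, 22 and 19.6 FPKM to 45.9 and 31.1 FPKM (0.95 ± 0.25, adjusted p = 0.0178), whereas Eif2s3x was at 73.3, 76.1 and 73.8 FPKM in OPCs and at 55.8 and 51.3 FPKM in OLs (-0.47 ± 0.17, adjusted p = 0.0602). The level of the Y-linked copy per unit of the X-linked copy was 0.218, 0.289 and 0.266 in OPCs and 0.823 and 0.606 in OLs. Eif2d, a factor that can deliver tRNA without eIF2, fell by 1.05 ± 0.27 on the log2 scale (adjusted p = 0.0175). None of the 4 eIF2B subunits passed at 0 h, with adjusted p values from 0.112 to 0.851.

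The 14 eIF3 genes split. Of these, 6 were lower in OLs (Eif3l, Eif3g, Eif3d, Eif3i, Eif3h and Eif3b, by 0.58 to 0.91 on the log2 scale), and 3 were higher (Eif3f, Eif3j1 and Eif3j2, by 0.89 to 0.96). Eif3l had the highest level, with 443, 312 and 331 FPKM in OPCs and 195 and 185 FPKM in OLs (-0.91 ± 0.21, adjusted p = 0.00972). Eif3f, a subunit of the same structural core, was at 26.6, 22 and 26.4 FPKM in OPCs and at 42.0 and 52.7 FPKM in OLs (0.89 ± 0.21, adjusted p = 0.0112). Subunits of 1 complex therefore differed in opposite directions between the cell types. The calls for Eif3j1 (adjusted p = 0.0497) and Eif3j2 were not separate measurements, since 94.1% of the 30-base stretches of the Eif3j2 transcript also occur in transcripts of Eif3j1.

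During the chase the median translation factor transcript kept more of its label than the median of all transcripts in each of the 5 series. The median percent of the 0 h level that remained at 6 h was 32.3%, 22.1% and 36.1% over the translation factors in OPCs, and 14.4%, 11% and 17.7% over all transcripts of the same libraries. In OLs these medians were 45.5% and 65.5% for the translation factors, and 31.5% and 36.6% for all transcripts. The percent left at 6 h was above all 3 OPC values in both OL replicates for 21 of the 56 genes, beside 48.9% of all transcripts, and below them for 5, beside 2.86%. Half-lives had been capped at a ceiling of 6 h. Of the 56 genes, 21 were at the ceiling in all 5 replicates, beside 16.1% of all transcripts, and 15 were under it in all 5, beside 45.5%. For those 21 genes the half-lives hold no information on a difference between the cell types.

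The 21 transcripts at the ceiling came mainly from the elongation factors, eIF4F and eIF3. They included Eef2 and 4 of the 5 Eef1 genes (Eef1a1, Eef1b2, Eef1d and Eef1g), Eif5a and Eif5a2, Eif4a1, Eif4g1, Eif4g2 and Eif4h, as well as Eif1ax, Eif2s3x and 8 of the 14 eIF3 genes. Within eIF3, 7 of the 8 subunits of the structural octamer (Eif3c, Eif3e, Eif3f, Eif3h, Eif3k, Eif3l and Eif3m, but not Eif3a) were at the ceiling throughout, and 1 of the 6 other eIF3 genes was (Eif3i). This division of eIF3 was chosen after the values were seen. None of the 4 eIF2B subunits, the 3 regulators of eIF4E or the 3 modifying enzymes of the elongation factors with half-lives in both cell types was at the ceiling in all 5 replicates.

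**Figure D2:**
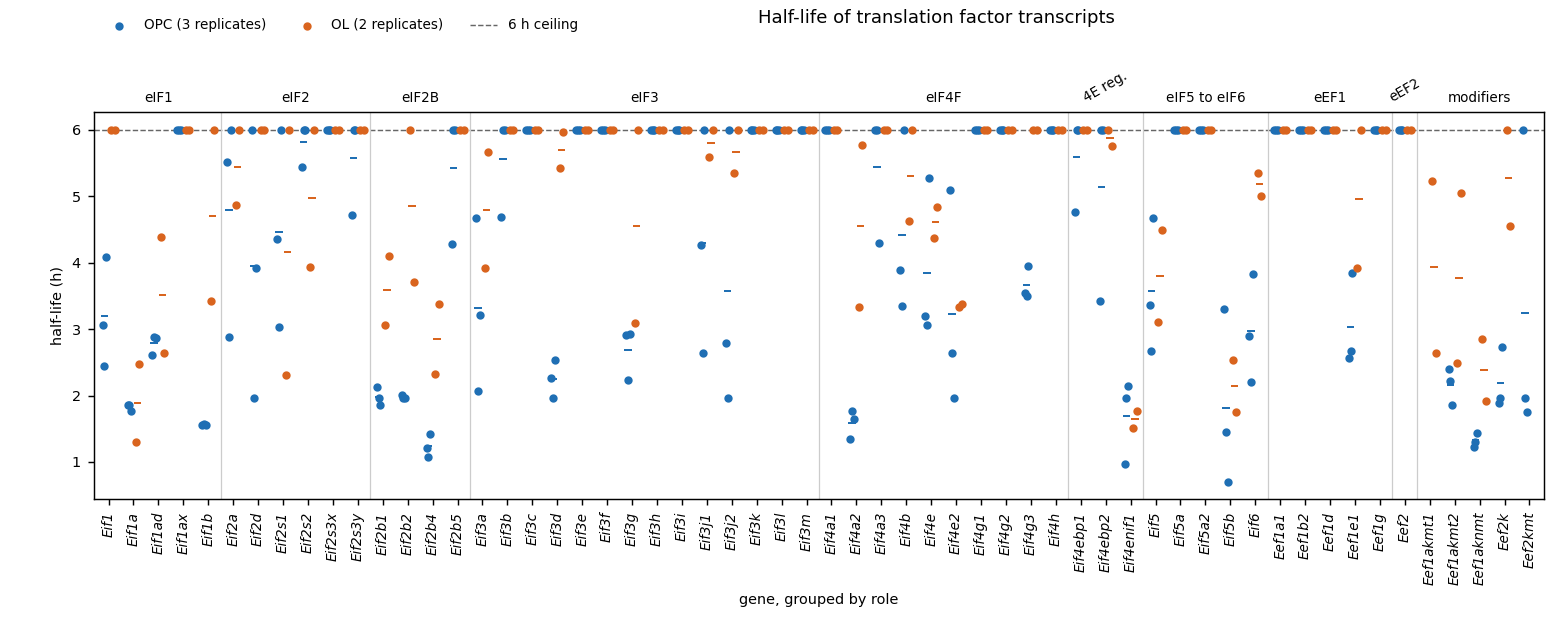
Half-life (h) of each translation factor transcript by replicate, grouped by role, with bars at the means (OPC, n = 3; OL, n = 2) and a dashed line at the 6 h ceiling. The Eef1 exchange subunits, Eef2 and 7 of 8 octamer subunits of eIF3 lie on the ceiling in every replicate, and the OPC points of Eif2b1, Eif2b2, Eif2b4, Eif4a2, Eif1b and Eif3d lie below both OL points. Over all transcripts, 35.9% had both OL half-lives above all 3 OPC half-lives.

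Some abundant transcripts stood above their starting level after 6 h. Eef1a1 stood at 113%, 192% and 152% of its 0 h level after 6 h in OPCs and at 118% and 127% in OLs. Eef1b2 stood at 109%, 196% and 125% in OPCs and at 129% and 119% in OLs, and Eif3h at 113%, 165% and 155% and at 148% and 129%. These 3 genes of the 56 were at or above the start in all 5 series, beside 2.49% of all transcripts. In all 3 OPC series 5 genes were, beside 4.46%, and in both OL series 3 were, beside 5.59%. A level above 100% means that the transcript gained relative to the spike-in RNA by which the later libraries had been scaled. In the fit of a slope over the chase (log2(FPKM + 1) per hour), 38 of 57 translation factors fell and 7 rose in OPCs, beside 81.9% and 5.06% of all transcripts. In OLs 29 of 57 fell and 1 (Eif3h) rose, beside 68.9% and 1.98%. The rising genes in OPCs were Eef1a1, Eef1b2, Eef2, Eif3h, Eif3i, Eif3k and Eif5a, and without OPC replicate 2 there were 2 rising genes. Without OL replicate 1, or without OL replicate 2, there was none in OLs. These directions rest on the spike-in scale, and relative to the median transcript of each library 34 genes rose and 6 fell in OPCs, beside 39.4% and 13.5% of all transcripts, and 31 rose and 1 fell in OLs, beside 31.4% and 13.4%.

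Messages for translation factors and ribosomal proteins are known for a terminal oligopyrimidine tract, a C followed by further pyrimidines at the very start of the message, through which mTOR signalling and the binding protein LARP1 control them. RefSeq start windows (GRCm38.p6) were at hand for 47 of the 58 genes. A run of at least 7 pyrimidines that begins with C was searched on the sense strand from 20 bases before to 30 after the annotated start. It was found for 17 of the 47 genes (36.2%), beside 25.7% of 8089 listed genes and 25% of 27025 genes in all. Among genes at the ceiling in all 5 replicates it was found for 7 of 15 translation factors, and for 10 of the 31 others with 5 half-lives. Over listed genes the shares were 27.6% at the ceiling and 25.9% for the others. The windows below, from 5 bases before to 25 after the start, are shown because they belong to stable elongation and initiation factors and differ in where the run lies. Capitals mark the first such run of a window, and the Eif3l window holds a further one. A match is a description of letters and not of a functional element.
Eef1a1 (chr9:78481700-78481729, minus strand): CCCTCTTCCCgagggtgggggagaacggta
Eef2 (chr10:81176626-81176655, plus strand): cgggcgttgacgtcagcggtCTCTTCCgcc
Eif2s3x (chrX:94212627-94212656, minus strand): ttttCCTTTTCTCTCCgagcaagatggctg
Eif2s3y (chrY:1010590-1010619, plus strand): cagccaCTTCCTTCTTTCgtgagcaagatg
Eif3l (chr15:79075218-79075247, plus strand): CTTCTTCCgctctctcccacgggcttctgg
Eif3k (chr7:28981864-28981893, minus strand): gcgctggtgctgaaagcgCCTTTCCCTTTg

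The X-linked and Y-linked copies of the eIF2 gamma subunit both carried such a run close to the start. Eif2s3x was at the ceiling in all 5 replicates and Eif2s3y in 4 of 5, with 4.72 h in OPC replicate 1.

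Few half-life differences between the cell types passed among the translation factors. Of the 56 genes, 2 had a longer half-life in OLs at an adjusted p under 0.05 (limma on log2 half-life over 8112 transcripts), beside 3.39% of all transcripts, and 0 had a shorter one, beside 0.148%. At an unadjusted p under 0.05 there were 11 genes, beside 23.0% of all transcripts. Both OL values were above all 3 OPC values for 14 genes, beside 35.9%, and below them for 0 genes, beside 2.01%. A share of 14 in 56 is under that of all transcripts, and 21 of the genes were tied at the ceiling. Eif3d, a subunit of eIF3 at the edge of the complex that can bind certain caps, had half-lives of 2.27, 1.96 and 2.54 h in OPCs and of 5.43 and 5.97 h in OLs (log2 difference 1.34 ± 0.14, adjusted p = 0.0429). Eif4g3, a paralogue of the Eif4g1 scaffold, had 3.55, 3.50 and 3.95 h in OPCs and was at the ceiling in both OL replicates (0.71 ± 0.07, adjusted p = 0.0401), so that its difference is not fully resolved. Its OL values are equal because of the cap, so its SE and p-value do not measure the spread between OL replicates. Neither Eif3d nor Eif4g3 held in most other settings. There was 1 such gene without OPC replicate 3, and 0 without OPC replicate 1 or without OPC replicate 2, and centring each replicate on its median half-life turned the difference of Eif4g3 to -0.19 (adjusted p = 0.646).

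At the short end of the scale were Eif4enif1, which encodes a transporter of eIF4E and partner of mRNA decay (0.967, 1.96 and 2.15 h in OPCs, 1.51 and 1.77 h in OLs), and Eef1aknmt, a methyltransferase of eEF1A (1.23, 1.3 and 1.44 h, and 2.85 and 1.91 h). Eif1a, Eif2b4 and Eif5b completed the 5 shortest by mean half-life, with means over the 5 replicates of 1.85, 1.88 and 1.95 h. Eif4enif1 kept short half-lives in both cell types, with overlapping groups. Eif5b had a mean of 1.82 h (SD 1.34 h) in OPCs and of 2.14 h (SD 0.55 h) in OLs, so its OPC replicates were spread widely. The 5 highest members at 0 h (Eef1a1, Eef2, Eif4a1, Eif5a and Eif4g2) were all at the ceiling. Of the 5 lowest by mean level, Eif5b and Eef1aknmt were among the shortest, whereas Eef2k, Eif3j1 and Eef2kmt had mean half-lives of 3.43, 4.90 and 3.24 h, the last over OPCs alone.

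The difference in slope between the cell types was tested over all 25 libraries, which uses every time point and has no ceiling. The slope was higher, that is the loss was slower, in OLs for 17 of the 56 genes, beside 31.5% of all transcripts, and lower for 0, beside 0.404%. The median slope difference was 0.09 per hour on the log2(FPKM + 1) scale over the translation factors and 0.14 over all transcripts. Relative to the median transcript of each library, 3 of the 56 genes had a higher slope in OLs (Eif1b, Eif2b2 and Eif3g), beside 4.13% of all transcripts, and 24 had a lower one, beside 22.7%. Those 24 included Eef1a1, Eef1b2, Eef1d, Eef1g, Eef2, Eif5a and 7 of the 8 eIF3 subunits at the ceiling (not Eif3f). The fit takes time points of a replicate as separate observations. In a test on 1 slope per replicate (3 OPC, 2 OL), added after the data were seen, 12 of the 56 genes were higher in OLs, beside 23.7% of all transcripts, and Eif1, Eif2a, Eif3a, Eif4b and Eif4g3 no longer passed. The count of 17 became 7 without OL replicate 1, 4 without OL replicate 2 and 6 without the 6 h libraries.

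**Figure D3:**
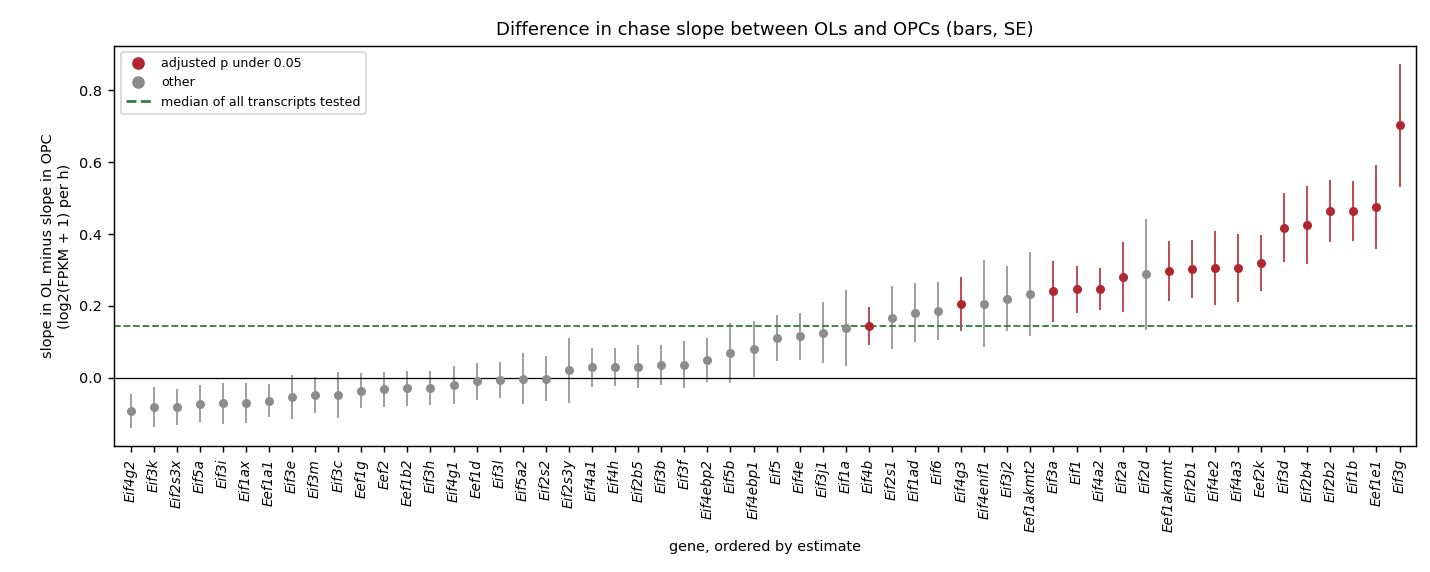
Slope in OLs minus slope in OPCs (log2(FPKM + 1) per hour, bars are SE of the fit) for the 56 shared genes in order of the estimate, with genes at an adjusted p under 0.05 in red and a dashed line at the median of all 8177 transcripts. The 17 red genes range from Eif4b (0.14) to Eif3g (0.70), and Eef1a1, Eef1b2, Eef1d, Eef1g and Eef2 lie near 0, below the dashed line. Relative to the median transcript of each library 3 genes were higher and 24 lower.

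Of the 4 subunits of eIF2B, the complex that recharges eIF2, 3 had a higher slope in OLs, beside 31.5% of all transcripts. Eif2b2, the beta subunit (GRCm38 chr12:85219481-85226628, 8 exons), had 3.93%, 2.31% and 9.42% of its 0 h level left at 6 h in OPCs and 30.6% and 32.6% in OLs. Its half-lives were 2.01, 1.96 and 1.96 h in OPCs, and 3.71 h and the ceiling in OLs. The slope difference was 0.46 ± 0.09 per hour (adjusted p = 0.000549), and it passed in all 11 other settings. Eif2b1, the alpha subunit, kept 5.74% and 7.77% in OPC replicates 1 and 3, was listed at 0 in replicate 2, and kept 25.8% and 36.3% in OLs (0.30 ± 0.08, adjusted p = 0.00666). Eif2b4, the delta subunit, kept 7.58% in OPC replicate 1, was listed at 0 at 4 h and 6 h in replicates 2 and 3, and kept 12.6% and 34.4% in OLs (0.42 ± 0.11, adjusted p = 0.00519). For all 3 of these regulatory subunits the OL values lay above the OPC values at 6 h, as they did for 48.9% of all transcripts. The catalytic epsilon subunit Eif2b5 did not pass, with 37.9%, 39.2% and 48.4% in OPCs and 38.4% and 52.2% in OLs (0.03 ± 0.06, adjusted p = 0.718). Whether Eif2b5 differs from the other subunits was not tested. Eif2b1 passed in 7 and Eif2b4 in 9 of the 11 other settings, and after centring on the median transcript their adjusted p values were 0.305 and 0.110. The half-life differences of Eif2b1, Eif2b2 and Eif2b4 had adjusted p values of 0.0959, 0.0959 and 0.0999, above the threshold. The gamma subunit was not analysed here.

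**Figure D4:**
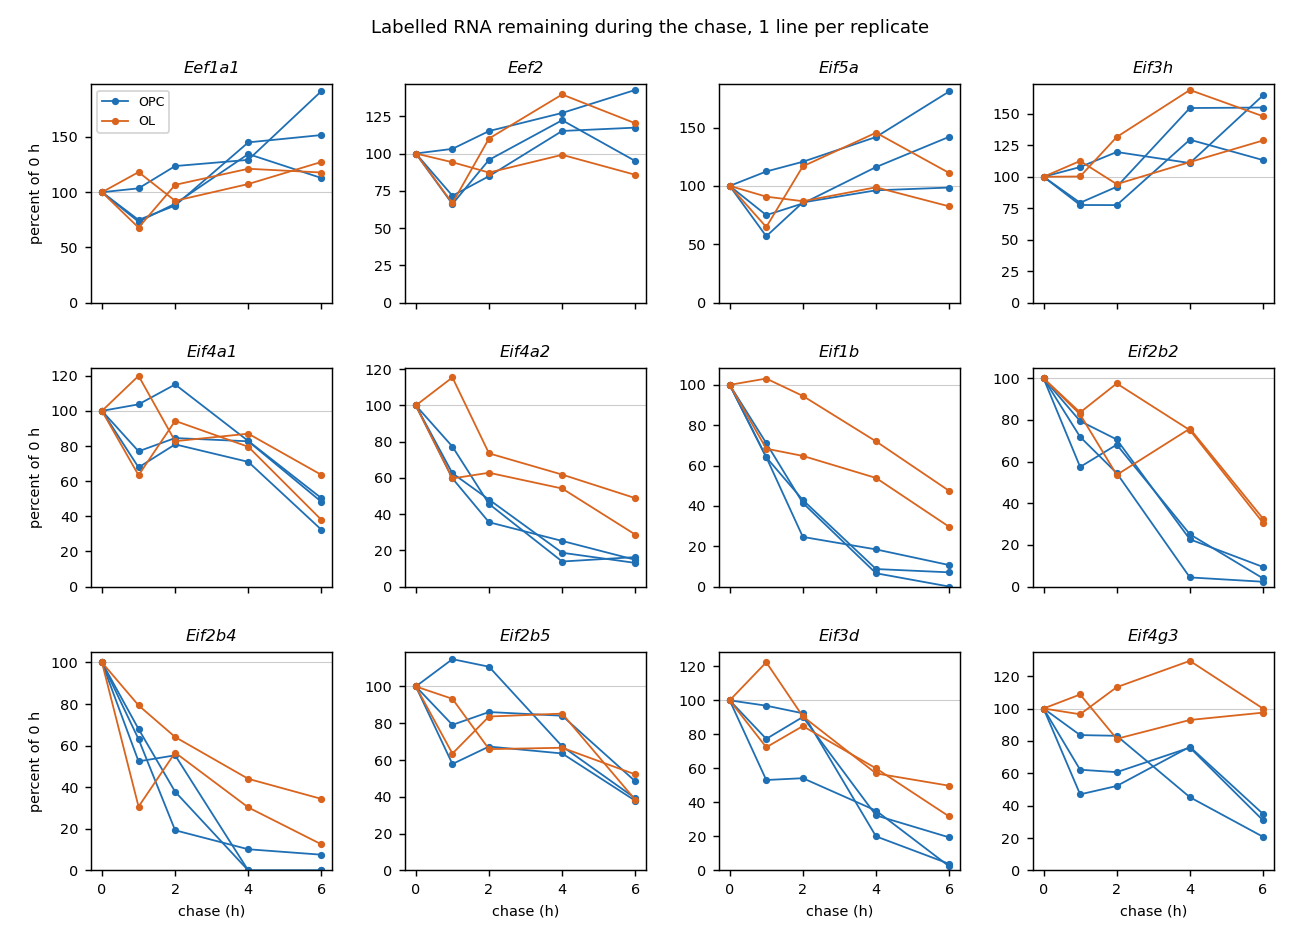
Labelled RNA remaining (percent of the 0 h level) against the time of chase (h) for 12 translation factor genes, with 1 line per replicate (3 OPC, 2 OL). At 6 h Eef1a1, Eef2, Eif5a and Eif3h lie between 82.5% and 192%, the cell types overlap for Eif4a1 and Eif2b5, and Eif4a2, Eif1b, Eif2b2, Eif2b4, Eif3d and Eif4g3 end higher in both OL replicates than in all 3 OPC replicates. Over all transcripts, 48.9% ended higher in this way.

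Letters known from binding sites of ETS-family transcription factors were searched as well, without any measure of binding. The letters CCGGAAGT, or ACTTCCGG on the other strand, were found in the 300-base start window of 8 of the 47 translation factors with a window (17%), beside 10.1% of listed genes and 4.31% of all genes. In 4 of these 8 (Eef1b2, Eif2b2, Eif2b4 and Eif4e2) the motif was within the 30 bases around the start. The motif was in the window of 4 of 15 translation factors at the ceiling in all 5 replicates and of 4 of 31 others. Over listed genes the shares were 9.01% at the ceiling and 10.9% for the others. The 4 windows are shown because the motif lies within them, and capitals mark it. Counted from the start, it begins at base 17 in Eif2b2, at base 6 in the Eif4e2 window shown, and at base 2 in Eif2b4 and Eef1b2. Eif2b1 and Eif2b5 had no match in this window, which says nothing about the factors.
Eif2b2 (chr12:85219476-85219505, plus strand): cggaagttgacctctctcggcCCGGAAGTg
Eif2b4 (chr5:31193115-31193144, minus strand): tgcacgCCGGAAGTtgtagtccgctgggga
Eif4e2 (chr1:87213906-87213935, plus strand): cgccagccaaCCGGAAGTagccgggccctt
Eef1b2 (chr1:63176826-63176855, plus strand): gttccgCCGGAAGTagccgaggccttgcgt

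Other genes with a higher slope in OLs belonged to several roles. Eif1b kept 7.05% and 10.7% at 6 h in OPC replicates 1 and 3, was listed at 0 in replicate 2, and kept 29.6% and 47.4% in OLs (0.46 ± 0.08, adjusted p = 0.000449). Like Eif2b2, it passed in all 11 other settings. Eif4a2 kept 14.8%, 16.3% and 13.1% in OPCs and 28.7% and 48.8% in OLs (0.25 ± 0.06, adjusted p = 0.00278), and its half-lives of 1.35, 1.77 and 1.65 h against 3.33 and 5.77 h did not pass (adjusted p = 0.108). Eif4a1 was at the ceiling in every replicate, and its slope difference was 0.03 ± 0.05 (adjusted p = 0.704). The difference between these paralogues was not tested.

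Eef2k, the kinase that inactivates eEF2, kept 9.63%, 5.94% and 12% in OPCs and 55.3% and 40.1% in OLs (0.32 ± 0.08, adjusted p = 0.00388). Its 0 h levels of 11.4, 10.6 and 11.2 FPKM in OPCs and 5.79 and 9.15 FPKM in OLs did not differ past the threshold (adjusted p = 0.178). Eif3d kept 2.44%, 3.89% and 19.5% in OPCs and 31.7% and 49.8% in OLs (0.42 ± 0.10, adjusted p = 0.00257). Eif3g, the RNA-binding subunit of eIF3, was listed at 0 at 6 h in all 3 OPC replicates after 62.7%, 29.0% and 54.2% at 4 h, and kept 22.7% and 62.2% in OLs. Its estimate of 0.70 ± 0.17 (adjusted p = 0.00358) therefore depends on the 6 h libraries and on the pseudocount. Values of 0 occurred for 4, 8 and 6 of 57 translation factors in the 3 OPC libraries at 6 h, and for 0 of 57 in both OL libraries. Over all transcripts, 15.7%, 21.6% and 16.4% were at 0 in those OPC libraries, and 4.08% and 0.79% in the OL libraries. The remaining genes with a higher slope in OLs were Eif1, Eif2a, Eif3a, Eif4a3, Eif4b, Eif4e2, Eif4g3, Eef1e1 and Eef1aknmt.

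Reads of some members cannot be assigned with confidence. Of the 30-base stretches of each transcript, the share that also occurs in transcripts of another gene (GENCODE vM21, sense strand) was 95.1% for Eif3j2, 72.8% for Eef1a1, 68.2% for Eef1g, 67.6% for Eif4a1, 54.7% for Eif3m, 46.0% for Eif4a3 and 43.4% for Eif3e. It was over 10% for 22 of the 58 genes and at most 1% for another 22. Of the genes the text turns on, Eif2b2, Eif2b4, Eif2b5, Eif3g, Eif3l and Eif4g3 shared almost nothing. In contrast, Eif3h shared 38.0%, Eif1 37.4%, Eif2s3x 37.0%, Eef1d 26.2%, Eef2 24.4% and Eif4a2 21.2%. Eif4ebp1 shared 16.0%, Eif5a 14.8% and Eef1b2 11.5%. How the authors' quantification split such reads was not given in the sources used here.

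Coding length and codon choice were set beside those of all listed transcripts, with no test. With annotation from GENCODE vM21, the median length was 352 codons over 57 translation factors and 467 codons over 10089 listed transcripts. The median share of lysine codons read as AAA was 41.7% against 37.5%, and that of phenylalanine codons read as TTT was 50.0% against 44.4%. Translation factors at the ceiling in all 5 replicates had medians of 40.2% AAA and 50.0% TTT, and the others had 43.5% and 50.0%. Over all transcripts the medians were 33.3% AAA and 42.3% TTT at the ceiling, and 38.0% and 45.5% for the others. The median of GC at the third codon position was 58.4% against 60.6%. Its quartiles were 43.8% and 65.1% over the translation factors and 51.1% and 68.4% over all transcripts.

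Partners of the translation factors were followed as a list of 50 genes. At 0 h, 4 of the 40 tested were higher in OLs, beside 14.1% of all transcripts, and 5 were lower, beside 17.5%. Neither count exceeds the share over all transcripts. Pdcd4, an inhibitor of eIF4A, rose from 7.64, 14.2 and 10.7 FPKM in OPCs to 99.2 and 91.6 FPKM in OLs (3.06 ± 0.26, adjusted p = 5.84e-05). Larp1, the binder of oligopyrimidine tracts, fell from 16.0, 16.8 and 15.4 FPKM to 6.20 and 7.95 FPKM (-1.09 ± 0.26, adjusted p = 0.0118). Of the mitochondrial factors, Tsfm (-1.21 ± 0.22, adjusted p = 0.0035) and Tufm (-0.80 ± 0.22, adjusted p = 0.0239) fell, and Tsc2, an inhibitor of mTOR signalling, fell as well (-0.69 ± 0.22, adjusted p = 0.0376). The catalytic phosphatase subunits Ppp1cb and Ppp1cc differed in opposite directions (1.12 ± 0.19, adjusted p = 0.00249, and -0.99 ± 0.19, adjusted p = 0.00435). Paip2 and Paip2b, which hold back poly(A)-binding protein, rose (0.60 ± 0.17, adjusted p = 0.0257, and 0.83 ± 0.24, adjusted p = 0.0282).

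In the chase, 11 of the 40 partner genes had a higher slope in OLs, beside 31.5% of all transcripts, and 0 a lower one, beside 0.404%, and no half-life difference passed among them. The 11 included Mtor (0.36 ± 0.07, adjusted p = 0.00101) and Rptor (0.36 ± 0.08, adjusted p = 0.00172), the kinase and the defining subunit of mTOR complex 1, and Larp1 (0.43 ± 0.08, adjusted p = 0.000758). Larp1 kept 3.76%, 2.06% and 8.20% of its 0 h level at 6 h in OPCs and 44.8% and 43.1% in OLs. Dph7, an enzyme that helps to build the diphthamide residue of eEF2, had the largest estimate (0.50 ± 0.09, adjusted p = 0.000525). It was listed at 0 at 6 h in all 3 OPC replicates, so the size of this estimate depends on the pseudocount. The median slope difference over the 40 genes was 0.15 per hour, near the 0.14 of all transcripts.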

How the data were processed

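Decay-seq data of OPCs and OLs were analysed as deposited. The authors clipped adapters with fastx_clipper, aligned to GRCm38 with HISAT2 2.1.0 and tabulated FPKM with StringTie 1.3.5 and ballgown over canonical coding transcripts of GENCODE vM9 (tool versions from the submitters' processing notes). The authors' methods describe scaling of FPKM at each time point to 5-EU-labelled spike-in RNA. The deposited 0 h columns keep the decimals of the quantification tool and the later ones do not, so 0 h was read as unscaled and later values as scaled relative to it. The authors left out transcripts under 1 FPKM at 0 h and those at 0 at 1 h and 2 h. Half-lives in h were fitted by the authors per replicate as a single exponential by least absolute deviations. The authors capped longer half-lives at 6 h, and capped values, deposited as just above 6 h, were set to 6 h exactly. A refit from the FPKM came within 0.01 h for 98.15 to 99.92% of transcripts. The biotin-free control was not analysed here.

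FPKM were compared as log2(FPKM + 1) with limma 3.58.1 (R 4.3.3) and a mean-variance trend, and log2 half-lives with limma without a trend. Slopes over 0 to 6 h had a term for each replicate. Every fit covered all listed transcripts, and p-values were adjusted over all of them (Benjamini-Hochberg, threshold 0.05). The study describes the replicates as biological, and p-values at 0 h and for half-lives measure the spread between them. For half-lives at the ceiling the cap sets part of that spread, so their p-values do not measure it fully. P-values of slopes come largely from time points within replicates. Genes with values in the text were those past the threshold in a comparison between cell types (at most 25 each, by size of change), those of the eIF2, eIF2B, eIF4F, eEF1 and eEF2 roles with Eif5, Eif5a, Eif5b and Eif6, and the 5 highest, lowest, longest and shortest by level or half-life. Partner genes were named only where they passed, at most 10 per comparison. Members and lists were chosen with earlier results of these data known. Alternatives changed the pseudocount, low-value filter, trend, centring, 6 h libraries, half-life fit, replicate block and each replicate in turn.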

Additional observations from a re-analysis of the deposited data

Results flagged for a closer look

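The slope over the chase differed between OLs and OPCs for 17 translation factors by the test of the difference itself, a cell type by time term in limma over 25 libraries with p adjusted over all transcripts. Higher slopes in OLs, in log2(FPKM + 1) per hour, were found for Eif3g (0.70), Eef1e1 (0.47), Eif1b (0.46), Eif2b2 (0.46), Eif2b4 (0.42) and Eif3d (0.42). Smaller differences were found for Eef2k (0.32), Eif4a3 (0.31), Eif4e2 (0.31), Eif2b1 (0.30), Eef1aknmt (0.30), Eif2a (0.28), Eif4a2 (0.25), Eif1 (0.25), Eif3a (0.24), Eif4g3 (0.21) and Eif4b (0.14). The 17 of 56 genes stand beside 31.5% of all transcripts, and the median over all transcripts was 0.14. Relative to the median transcript of each library 3 genes were higher and 24 lower.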

How the results depend on the processing

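At 0 h, leaving out each replicate in turn gave 2 to 7 higher and 5 to 21 lower genes, and a replicate block gave 4 and 12, with 11 of the 27 calls lost, Eef1a1 and Eef2 among them. Longer half-lives in OLs numbered 0 without the 6 h libraries and after rescaling to 1 mean decay curve (where 2 were shorter). They also numbered 0 after centring and with the replicate block, and 0 or 1 when an OPC replicate was left out. Rising genes in OPCs numbered 34 (6 falling) after centring, beside 39.4% and 13.5% of all transcripts, 4 without the 6 h libraries and 2 to 7 when a replicate was left out. In OLs they numbered 31 (1 falling) after centring, beside 31.4% and 13.4%, and 0 without the 6 h libraries, with a 5 FPKM filter, with no replicate block and without either replicate. Genes with a higher slope in OLs numbered 3 (24 lower) after centring, 6 without the 6 h libraries and 4 to 18 when a replicate was left out. Estimates that changed sign were the half-life of Eif4g3 (-0.19) and the slopes of Eif4b (-0.069) and Eif4g3 (-0.0068) after centring, and the slope of Eif2a without the 6 h libraries (-0.010). The cause was not tested. Over all named genes and alternatives, 320 of 480 calls held and 156 were lost. Same-numbered replicates correlated by 0.06 and 0.01 in their deviations at 0 h, with 2 shared numbers. At 1 h of chase, however, the median percent of the 0 h level was 67.9% in OPC replicate 1 and 64.0% in OL replicate 1. It was 95.3% in OPC replicate 2, 95.5% in OL replicate 2 and 75.4% in OPC replicate 3. Whether the numbers pair the replicates cannot be told from these values. With 1 OL replicate left out, the lone OL sample was assumed to vary like the OPCs. Read depth, which is unknown, and the 6 h ceiling limit what can be resolved.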
